A study of Mus musculus with 4 samples.

Results

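Transcripts of 8 complement genes were followed by the retinal cell that held them. C1qa, C1qb, C1qc, C4b, C3, Cfi, Serping1 and C3ar1 were taken by name from a list of complement and regulator genes, and all 8 were among the 20094 genes of the deposited matrix. Their transcripts were divided between microglia, Müller glia (the glia that span the retina and support its neurons) and neurons.

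Retinae came from 6-week-old Abca4-/-Rdh8-/- mice on a C57BL/6J background, which lack a lipid transporter and a retinol dehydrogenase of photoreceptors, and bright light damages their retina. Each of 4 groups was a single 10x Chromium library made from 4 retinae pooled from 2 mice, so no value below has a replicate. The unbleached vehicle group received DMSO and no bleaching light, and for it no dark adaptation is recorded. The bleached vehicle group received DMSO, spent 24 h in the dark and then 30 min under a white lamp of 10000 lux. The rolipram and BC11-38 groups were bleached in the same way, with rolipram (an inhibitor of phosphodiesterase 4) or BC11-38 (an inhibitor of phosphodiesterase 11) injected in DMSO at 2 mg/kg, 30 min before light. The bleached groups were sampled at 1 day after light. All 4 groups carry the Abca4 and Rdh8 deletions, and a group treated with another inhibitor, which the protocol mentions, was not analysed here.

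Complement is a cascade of secreted proteins that tag cells and debris and recruit phagocytes. C1q, built from the products of C1qa, C1qb and C1qc, starts the classical pathway, C4 and C3 are cleaved in turn, and fragments of C3 are sensed by receptors such as C3ar1. Regulators such as C1 inhibitor (Serping1) and factor I (Cfi) hold the cascade back, and in the retina complement is known for its part in the response to photoreceptor injury and in macular disease.

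The libraries held 5697 to 7894 cells and 28983626 to 44386442 UMIs (unique molecular identifiers, each counting a captured transcript). Xist, a transcript of female cells, was seen in 0.176% of bleached vehicle cells and in 48.1% to 51.6% of cells of the other libraries. The bleached vehicle library was thus nearly all male. Y-linked transcripts were seen in 64.8% of its cells and in 33.5% to 40.5% of cells of the others, which thus held both sexes. Sex therefore cannot be told apart from bleaching or drug in comparisons with bleached vehicle. Pairs of libraries shared 10 to 25 cell barcodes. The doublet caller marked under 0.5% of the cells of each library, against at least 4.56% expected, so it had not worked and most doublets remain. Levels are given as CPM, the UMIs of a gene per 1000000 UMIs of the cells named, with exact 95% intervals that cover counting error only and hold no variation between mice.

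Cells were clustered without any gene of the complement list, so the class of a cell did not depend on the genes described here. All 13 microglial markers were detected in the microglia cluster and all 13 Müller markers in each of the 4 Müller clusters. The microglia cluster held 14 cells in the unbleached vehicle library, 38 in the bleached vehicle library, 32 in rolipram and 0 in BC11-38. In the BC11-38 library 2 of the 13 microglial markers, Tmem119 and Aif1, had no UMI, and no cell held UMIs of more than 2 markers. The Müller class held 596, 1407, 1211 and 602 cells in the same order, and neurons 5027, 5243, 6493 and 5435.

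The genes lie on several chromosomes. On GRCm38 (mm10) the C1q genes stand side by side on the minus strand of chromosome 4, within 18.7 kb, with C1qb at 136880129-136886187, C1qc at 136889804-136893065 and C1qa at 136895917-136898803. C3 (57203970-57228136) and C4b (34728380-34743882) are on chromosome 17, Serping1 on chromosome 2 (84765387-84775444), Cfi on chromosome 3 (129835884-129875332) and C3ar1 on chromosome 6 (122847138-122856161). The promoters of C1qb and C1qc are shown because these neighbouring genes had the same source cell. They are RefSeq windows on GRCm38.p6, from 250 bases before to 50 bases after the start of the gene, and read 5′ to 3′ on the minus strand at chr4:136886151-136886450 (C1qb) and chr4:136892865-136893164 (C1qc). Capitals mark GAGGAA, a core sequence bound by the myeloid factor PU.1, on either strand.
C1qb: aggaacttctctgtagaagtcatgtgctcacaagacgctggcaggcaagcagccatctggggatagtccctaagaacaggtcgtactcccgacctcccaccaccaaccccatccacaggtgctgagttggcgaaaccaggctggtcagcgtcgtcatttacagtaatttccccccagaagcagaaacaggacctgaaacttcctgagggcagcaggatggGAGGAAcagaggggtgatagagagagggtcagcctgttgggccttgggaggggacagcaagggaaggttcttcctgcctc
C1qc: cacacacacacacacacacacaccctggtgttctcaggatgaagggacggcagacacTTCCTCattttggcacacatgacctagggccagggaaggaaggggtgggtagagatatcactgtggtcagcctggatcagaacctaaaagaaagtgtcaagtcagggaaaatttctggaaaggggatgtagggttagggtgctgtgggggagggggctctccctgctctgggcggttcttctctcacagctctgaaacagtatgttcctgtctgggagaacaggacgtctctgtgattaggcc
The motif began at -30 from the start of C1qb on the strand shown and at -193 in C1qc on the other strand. It was found on either strand in 28.3% of the 32851 RefSeq promoter windows of this length, so a match is common. The windows of C3 and C3ar1 held none. C1qa, C4b, Cfi and Serping1 were not matched in the promoter table.

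The 8 genes fell into groups by source cell. Of the UMIs of C1qa, C1qb and C1qc, 99.0%, 99.0% and 98.9% came from the microglia cluster, and so did 81.7% of C3ar1 UMIs. Müller glia held 97.4% of C4b, 85.1% of C3 and 69.6% of Serping1 UMIs. Cfi was the only member with most of its UMIs in neurons, 55.8%, with 38.2% in Müller glia. Thus, with UMIs summed over the libraries, 4 members had their main source in microglia, 3 in Müller glia and 1 in neurons. Single libraries differed from this where UMIs were few or a class was missing. In BC11-38, 19 of 21 C3 UMIs (90.5%) and 13 of 15 C3ar1 UMIs (86.7%) were in neurons. So were its 2 C1qa UMIs, its 4 C1qc UMIs and 1 of its 2 C1qb UMIs. That library had 0 microglia, so it could show no microglial share. In rolipram 9 of 15 Cfi UMIs were in Müller glia and 6 in bipolar cells.

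**Figure D1:**
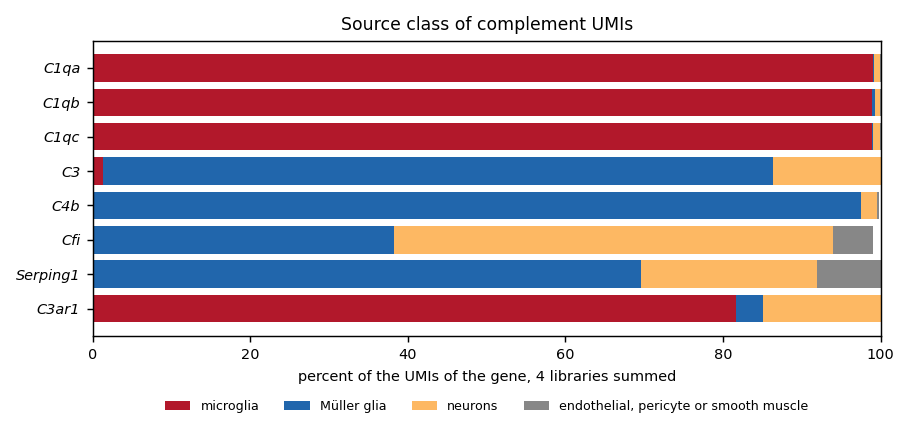
Each bar divides the UMIs of a gene, summed over the 4 libraries, between source classes (x axis, percent of UMIs). The C1q genes and C3ar1 are mostly red (microglia), C4b, C3 and Serping1 mostly blue (Müller glia), and Cfi is split between neurons and Müller glia.

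The C1q genes were microglial in every library that had microglia. C1qa, the A chain, stood at 5788 CPM in unbleached vehicle microglia (917 UMIs), 3470 in bleached vehicle (1610 UMIs) and 5591 in rolipram (1213 UMIs). C1qb, the B chain, stood at 5113, 3548 and 4789 CPM, and C1qc, the C chain, at 3970, 2752 and 3522 CPM. All 3 genes were thus lowest in the bleached vehicle cells. With 14 to 38 cells a library these levels are a description, and no ratio was formed. The order turned when the cells with the highest doublet scores were left out: C1qa was then at 5958 CPM in 3 unbleached vehicle cells, 4359 in 27 bleached vehicle cells and 305 in 4 rolipram cells.

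Per cell, the summed C1q UMIs ran from 4 to 617 with a median of 75 in unbleached vehicle, from 0 to 611 with a median of 12.5 in bleached vehicle and from 0 to 274 with a median of 67 in rolipram. The ranges overlapped, and the lowest median was that of bleached vehicle. All 3 C1q genes were seen together in 12 of 14, 25 of 38 and 26 of 32 cells. No C1q UMI was found in 7 bleached vehicle and 2 rolipram cells of the cluster, against 0 unbleached cells. Of the 7 cells, 6 held at least 3 microglial markers. They had a median of 6332 UMIs, against 4593 in the 31 bleached vehicle cells with C1q. The 7 cells held 6754 CPM of the microglial markers, against 15178 in the cells with C1q.

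Markers of macrophages and monocytes were also present in the cluster. The 5 of 8 listed markers in the matrix (Lyve1, Pf4, Ly6c2, Lyz2 and Ms4a7) summed to 410 CPM in unbleached vehicle, 1946 in bleached vehicle and 2697 in rolipram cells. Much of this lay in few cells. Of 559 such UMIs in the 30 rolipram cells with C1q, 386 were in 1 cell and 93 in another. Of 762 in the 31 bleached vehicle cells with C1q, 323 were in 1 cell. In the 7 bleached vehicle cells without C1q they came to 2645 CPM, 130 of their 141 UMIs being Lyz2 (lysozyme of myeloid cells), and Pf4 was at 0. Transcripts of rod markers in the same cluster were 2001, 843 and 3642 CPM, and 11 of 14, 10 of 38 and 27 of 32 cells were among the highest doublet scores of their library. The part of macrophages, of rod RNA and of doublets in the C1q levels was not tested.

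**Figure D2:**
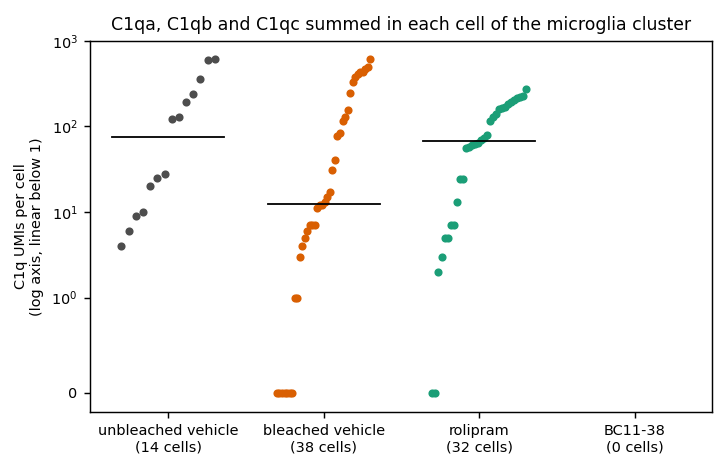
Points are cells of the microglia cluster, ordered by their C1q UMIs within each library, and black lines are medians (y axis: C1qa, C1qb and C1qc UMIs summed, log axis, linear below 1). The medians are 75, 12.5 and 67, the cells at 0 are 7 of bleached vehicle and 2 of rolipram, and the BC11-38 library has no cell.

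Outside the microglia cluster, C1q was near nothing. A C1q UMI was seen in 22 of 5682 unbleached vehicle cells, 36 of 6769 bleached vehicle cells, 34 of 7844 rolipram cells and 8 of 6143 BC11-38 cells, with at most 2 UMIs in any cell. Across neuron classes and libraries C1qa reached at most 1.51 CPM, and C1qb and C1qc 1.02 CPM. In Müller glia C1qa was at 0.131, 0.147 and 0.278 CPM in unbleached vehicle, bleached vehicle and rolipram, and at 0 of 4134417 UMIs in BC11-38. With at most 2 UMIs in a cell, C1q outside microglia cannot be told apart from free RNA, and its origin was not tested. The whole BC11-38 library gave 8 C1q UMIs, 0.276 CPM, against 67.0 in unbleached vehicle, 103 in bleached vehicle and 97 in rolipram. With no microglia recovered, C1q after BC11-38 could not be measured in its source cell.

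C3ar1, the receptor for the C3a fragment, was also microglial. Its level in the cluster was 549 CPM in unbleached vehicle, 565 in bleached vehicle and 286 in rolipram. The rolipram value lay outside the counting intervals of the other libraries (440 to 677 and 498 to 637 CPM), resting on 62 UMIs in 17 of 32 cells. Of the 87 UMIs in unbleached vehicle, single cells held 30, 22 and 19. Counting intervals do not cover such differences between cells. Without the highest doublet scores the 4 rolipram cells left held no C3ar1 UMI. Neuron classes ranged from 0 to 4.02 CPM, the highest being cones of the bleached vehicle library with 7 UMIs. In amacrine cells C3ar1 had 21 UMIs in unbleached vehicle (1.82 CPM), and 2, 2 and 6 UMIs in bleached vehicle, rolipram and BC11-38.

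C4b, a source of the C4 protein that the classical pathway cleaves, was a Müller transcript in all libraries. It stood at 66.7 CPM (510 UMIs) in Müller glia of the unbleached vehicle library, 52.4 (1073 UMIs) in bleached vehicle, 65.3 (470 UMIs) in rolipram and 6.29 (26 UMIs) in BC11-38. The first 3 libraries were close to each other, and BC11-38 was far below. The ratio of BC11-38 to bleached vehicle was 8.34-fold lower (5.66 to 12.8), and rolipram was 10.4-fold above BC11-38 (7.0 to 16.1). Bleached vehicle was at 0.786 of unbleached vehicle (0.706 to 0.875) and rolipram at 1.25 times bleached vehicle (1.12 to 1.39). C4b UMIs were found in 36.1%, 31.8%, 22.5% and 3.32% of Müller cells, and in 10.9%, 7.96%, 9.57% and 0.698% after each cell was thinned to 1500 UMIs, which left out 25, 38, 41 and 29 shallower cells. Rods, which stand for free RNA, held a C4b UMI in at most 0.294% of cells. In neuron classes C4b did not exceed 1.90 CPM. Its paralog C4a is nearly identical, so reads could be divided between them, and C4a was at 0 to 0.278 CPM in Müller glia.

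C3, the central protein on which all pathways converge, was highest in bleached vehicle Müller glia. Its level was 10.2 CPM in unbleached vehicle (78 UMIs), 17.5 in bleached vehicle (358), 5.98 in rolipram (43) and 0.484 in BC11-38 (2). Bleached vehicle was 1.71 times unbleached vehicle (1.34 to 2.22), which is under the 2-fold used to count a difference. Rolipram was 2.93-fold below bleached vehicle (2.13 to 4.12). BC11-38 stood at 0.0276 of bleached vehicle (0.00334 to 0.101). In the rolipram library 34 of the 43 UMIs were in a single cell, and without the highest cell of each library the ratio to bleached vehicle was 0.0760. In Müller cells with a Y-linked and no Xist UMI, which compares male cells, the same ratio was 0.849. There C3 was not 2-fold lower in rolipram. The male-cell ratio was not computed without the highest cell, so the part of the cell with 34 UMIs in it was not tested. C3 was seen in 34 of 596, 152 of 1407, 9 of 1211 and 1 of 602 Müller cells. In microglia it was at 0, 10.8 and 9.22 CPM from at most 5 UMIs, and in neuron classes at up to 2.75 CPM.

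Serping1 encodes C1 inhibitor, which blocks the proteases attached to C1q. In Müller glia it stood at 96.6 CPM in unbleached vehicle (738 UMIs), 82.7 in bleached vehicle (1693), 48.5 in rolipram (349) and 16.7 in BC11-38 (69). The order was unbleached, bleached, rolipram and BC11-38, and no neighbouring intervals overlapped (89.7 to 104, 78.9 to 86.8, 43.6 to 53.9 and 13 to 21.1 CPM). The bleached level was 0.857 of the unbleached (0.785 to 0.935). Rolipram was 1.71-fold below bleached vehicle (1.52 to 1.92), and BC11-38 was 4.96-fold below it (3.90 to 6.4). Rolipram was 2.91-fold above BC11-38 (2.24 to 3.82). After thinning, a Serping1 UMI was seen in 11.6%, 12.1%, 6.15% and 4.01% of Müller cells, against 51.8%, 42.7%, 19.1% and 9.14% before it. Thinned, the unbleached and bleached shares did not keep the order of the CPM.

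Read against all genes of Müller glia, the counts were as follows. Between bleached and unbleached vehicle 0 of the 3 members with at least 100 UMIs differed 2-fold, where 4.17% of all counted genes did. Rolipram against bleached vehicle gave 1 of 3 lower, C3, against a background of 5.91% lower. BC11-38 against bleached vehicle gave 3 of 3 lower (C3, C4b and Serping1), against 9.4% of counted genes. Rolipram against BC11-38 gave 2 of 2 higher (C4b and Serping1), against 1.49%. The median log2 ratio of the counted members was -0.22, -0.77, -3.03 and 2.44 in this order, and that of all counted genes -0.01, 0.10, 0.08 and -0.01. Against BC11-38, C3, C4b and Serping1 reached 100 UMIs only through bleached vehicle (358, 1073 and 1693 UMIs, against 2, 26 and 69). C3 did so too against rolipram (43 UMIs). Between the drugs, C4b and Serping1 reached it only through rolipram (470 and 349 UMIs, against 26 and 69). C3 was not counted there. Members low in both libraries could not be counted, so these counts add no support to the ratios. The other 5 members had too few Müller UMIs to be counted. These comparisons share the bleached vehicle library, which enters 3 of them.

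The Müller class was not made of the same cells in each library, and this moved the ratios. Cluster 12, led by Cp and Crym, held 47.5% of Müller cells in the unbleached vehicle library, 70.4% in bleached vehicle, 15.7% in rolipram and 0.664% in BC11-38. Cluster 30, led by Spc25 and Apoe, held 33.4%, 4.19%, 72.2% and 92.2%. Thus most vehicle-bleached Müller cells and most drug-library Müller cells were in different clusters. The median depth also differed, from 5571 UMIs per Müller cell in rolipram to 13715 in bleached vehicle. The part of depth and of cluster make-up in the class ratios was not tested beyond the values below.

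Within cluster 30, C4b was at 84.5 CPM in unbleached vehicle, 131 in bleached vehicle (59 cells), 50.02 in rolipram and 4.54 in BC11-38. The bleached level was then the highest, 1.55 times unbleached vehicle (1.14 to 2.09), and rolipram was 2.62-fold below it (1.95 to 3.47), the opposite direction to the whole class. BC11-38 was 28.9-fold below bleached vehicle (16.9 to 51.8). Serping1 in this cluster was at 103, 189, 35.6 and 17.2 CPM, so bleached vehicle was 1.83 times unbleached vehicle (1.41 to 2.37), again opposite to the class. Rolipram was 5.32-fold (4.08 to 6.89) and BC11-38 11-fold (7.98 to 15.3) below it. C3 was at 2.68, 16.7, 0.625 and 0.505 CPM from 5, 8, 3 and 2 UMIs.

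Cluster 12 gave other values. C4b there was at 55.5 CPM in unbleached vehicle, 48.4 in bleached vehicle and 78.7 in rolipram, with rolipram 1.63 times bleached vehicle (1.35 to 1.95). Serping1 was at 93.1, 81.5 and 78.7 CPM, and rolipram was at 0.965 of bleached vehicle (0.803 to 1.15). C3 was at 11.8, 17.2 and 22.7 CPM in cluster 12. The cluster held 39 of the 43 C3 UMIs of rolipram Müller glia, 34 of them in 1 cell. A C3 UMI was seen in 6 of 190 rolipram cells there, against 133 of 991 in bleached vehicle. The C3 level of rolipram was 1.32 times that of bleached vehicle (0.924 to 1.85). In cluster 30 the same C3 ratio was 0.0375 (0.00642 to 0.156), from 3 and 8 UMIs. The 8 UMIs of bleached vehicle lay in 3 of 59 cells, with 6 of them in 1 cell. Thus the ratios of C4b and Serping1 after bleaching, and of C4b with rolipram, lay on different sides of 1 in clusters 12 and 30. The C3 ratios with rolipram did so too, but in cluster 12 the interval spanned 1. Most rolipram C3 UMIs in cluster 12, and most bleached vehicle C3 UMIs in cluster 30, came from 1 cell each. The lower level with BC11-38 was also found within cluster 30, the only cluster with at least 50 cells of that library. Cluster 13, led by Gfap (an intermediate filament of reactive Müller glia and of astrocytes), held 17, 43, 59 and 4 cells. It had the highest C4b, at 185, 161 and 160 CPM in unbleached vehicle, bleached vehicle and rolipram. Without the highest doublet scores a Gfap-led cluster of 46 cells was named astrocyte, and whether cluster 13 held astrocytes was not tested.

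**Figure D3:**
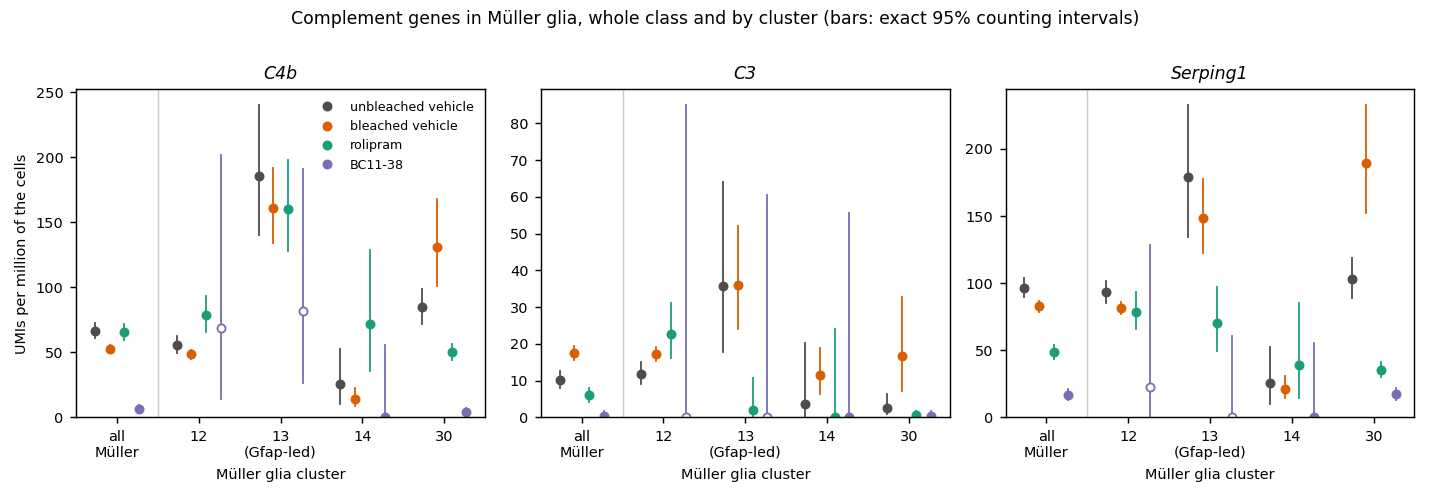
C4b, C3 and Serping1 in all Müller glia and in each Müller cluster (y axis, CPM), with exact 95% counting intervals as bars and open points where a library has under 15 cells. In cluster 30 the bleached vehicle point is the highest for all 3 genes, while in cluster 12 the libraries with enough cells are close for Serping1, between 78.7 and 93.1.

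Serping1 was also found in neurons. In bipolar cells, which carry photoreceptor signals inward, it was at 7.70 CPM in unbleached vehicle (58 UMIs), 25.9 in bleached vehicle (294), 4.65 in rolipram (43) and 2.89 in BC11-38 (26). Bleached vehicle was 3.37 times unbleached vehicle (2.53 to 4.54), rolipram was 5.57-fold below bleached vehicle (4.03 to 7.86) and BC11-38 8.95-fold below it (5.99 to 13.9). In amacrine cells, the interneurons of the inner retina, it was at 4.68 CPM (54 UMIs), 25.9 (90), 2.75 (19) and 1.43 (11). There bleached vehicle was 5.54 times unbleached vehicle (3.91 to 7.91), and rolipram and BC11-38 were 9.43-fold (5.70 to 16.4) and 18.1-fold (9.66 to 37.6) below bleached vehicle. In both classes bleached vehicle was the only high library. It was also the nearly all-male library, and the neuron ratios were not computed in male cells alone.

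Serping1 was the only member with at least 100 UMIs in any of these neuron comparisons. Its count of 1 of 1 higher after bleaching stands against 0.941% of counted genes in bipolar and 1.19% in amacrine cells. For the lower level with rolipram the backgrounds were 1.28% and 0.91%, and with BC11-38 1.82% and 1.14%. In bipolar cells Serping1 reached 100 UMIs only through bleached vehicle (294 UMIs, against 58, 43 and 26). In amacrine cells bleached vehicle gave 90 UMIs, against 54, 19 and 11. The minimum was thus met mainly where Serping1 was high, so these counts add no support to the ratios. In rods no member was counted, where 1.53%, 3.49%, 5.72% and 0.996% of counted genes differed either way in the 4 comparisons. In cones likewise none was counted, against 1.51%, 3.57%, 4.12% and 0.297%. Between rolipram and BC11-38 no member was counted in bipolar cells (background 0.441%) or amacrine cells (0.289%).

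Horizontal cells, which feed back onto photoreceptors, had the most Serping1 of the neuron classes. It was at 93.6 CPM in 21 unbleached vehicle cells, 126 in 45 bleached vehicle cells, 25.9 in 39 rolipram cells and 16.1 in 30 BC11-38 cells. The vehicle libraries stood above the drug libraries with no overlap of their intervals, but the class has under 50 cells in each and no ratio was formed. Rods were at 1.42, 6.91, 1.33 and 0.275 CPM from 6, 27, 5 and 1 UMIs. Of the 27 UMIs in bleached vehicle rods, 16 were in rod cluster 2, led by the interferon-response genes Bst2 and Irf7, which held 241 cells of that library and stood at 34.5 CPM. Cones and ganglion cells stayed between 0 and 2.73 CPM. Microglia had no Serping1 UMI in any library.

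The higher Serping1 level in bleached than in unbleached vehicle was present within single neuron clusters. Compared were 8 bipolar and amacrine clusters with at least 50 cells in each vehicle library and at least 10 UMIs over both. The UMI minimum could be met through bleached vehicle alone, and clusters of the same libraries are not replicates. Of the clusters not compared, amacrine cluster 28 was lower in bleached vehicle (4.53 CPM in unbleached, 0 in bleached). Cluster 31 had no UMI, and the others not compared were higher in bleached vehicle, from few UMIs. In the 8 compared, Serping1 was higher in bleached vehicle in all 8, and the counting interval lay above 1 in 6. The highest were amacrine cluster 11, led by Lamp5, at 17.2 CPM in unbleached and 68.7 in bleached vehicle, bipolar cluster 9 at 14 and 59.2, and bipolar cluster 25 at 13.3 and 55.5. In rod bipolar cells (cluster 7, led by Pcp2 and Trpm1, with Prkca) it was at 8.26, 26.8, 1.5 and 0 CPM in the 4 libraries. BC11-38 rod bipolar cells had 0 UMIs against 97 in bleached vehicle, at least 23-fold lower with 3 counts in place of the 0. The mix of amacrine clusters differed between libraries, with cluster 11 giving 130 of 499 amacrine cells of bleached vehicle and 69 of 1215 of unbleached vehicle, and the part of this mix in the class ratio was not tested.

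**Figure D4:**
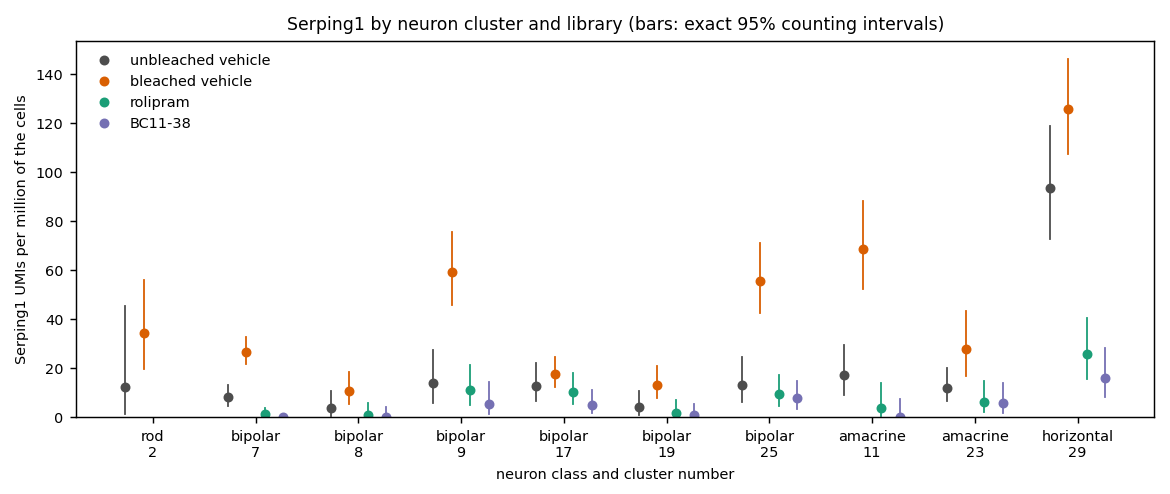
Serping1 (y axis, CPM) in the 8 bipolar and amacrine clusters compared, rod cluster 2 and horizontal cells, for libraries with at least 15 cells of the cluster, with exact 95% counting intervals. Bleached vehicle (orange) is the highest library in each cluster shown, from 10.6 in bipolar cluster 8 to 126 in horizontal cells.

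Serping1 in neurons was also set against Clu, a transcript abundant in Müller glia. Per 1000 Clu UMIs, Müller glia had 14, 19.2, 8.30 and 3.76 Serping1 UMIs in the 4 libraries. Bipolar cells had 44.6, 83.0, 53.5 and 46.5, and amacrine cells had 41.0, 188, 23.8 and 13.4. The ratio in rods, bipolar, amacrine and horizontal cells was above that of Müller glia in all 4 libraries. In cones it was below it in the vehicle and rolipram libraries (6.4, 2.08 and 7.54) and at 0 in BC11-38. Ganglion cells had 11.1, 0, 24.4 and 21.5, below Müller glia in both vehicle libraries and above it in the drug libraries. The order depended on the transcripts chosen: per 1000 UMIs of the 13 Müller markers, cones had 25.2, 7.17, 13 and 0 Serping1 UMIs, against 5.21, 6.33, 1.89 and 0.559 in Müller glia. On that scale rods, bipolar, amacrine and horizontal cells were again above Müller glia in all 4 libraries.

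Blood vessels also held Serping1. Endothelial cells were at 50.6 CPM in unbleached vehicle, 112 in bleached vehicle, 32.0 in rolipram and 31.1 in BC11-38. Bleached vehicle was 2.20 times unbleached vehicle (1.57 to 3.15), and the drug libraries were 3.48-fold (2.37 to 5.27) and 3.58-fold (2.34 to 5.71) below bleached vehicle. Pericytes or smooth muscle cells, 5 to 37 a library, were at 241, 508, 166 and 156 CPM.

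Cfi encodes factor I, the protease that inactivates C3b and C4b. It had 199 UMIs in all, and 52.3% of them were in bipolar cells. Of the 111 neuronal UMIs, 101 lay in cluster 7, the rod bipolar cells. The level there was 10.7 CPM in unbleached vehicle (22 UMIs), 19.1 in bleached vehicle (69), 2.25 in rolipram (6) and 1.55 in BC11-38 (4). Bleached vehicle was 1.78 times unbleached vehicle (1.09 to 3.03), and the drug libraries were 8.48-fold (3.70 to 23.9) and 12.3-fold (4.58 to 46.3) below bleached vehicle. All these totals are under 100 UMIs, so Cfi entered no count. In Müller glia Cfi was at 2.09, 2.44, 1.25 and 0.242 CPM, highest in the Gfap-led cluster 13 at 35.8, 20.6 and 7.62 CPM in unbleached vehicle, bleached vehicle and rolipram.

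**Figure D5:**
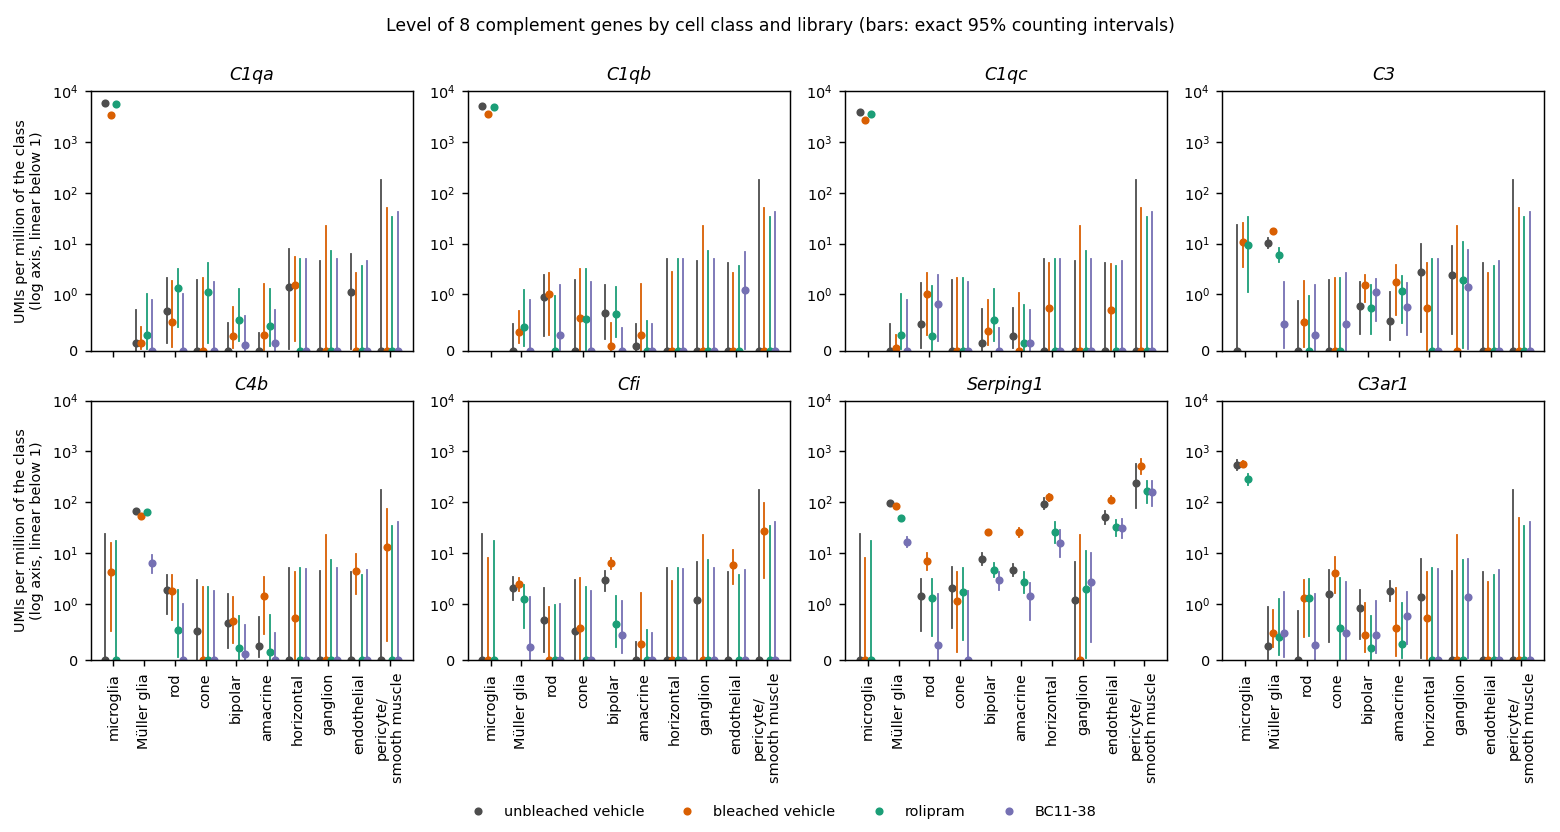
The 8 genes in each class (x axis) and library (colours), as CPM on a log axis that is linear below 1, with exact 95% counting intervals. The C1q genes reach 2752 to 5788 in microglia and stay near 0 elsewhere, while Serping1 is spread over Müller glia, inner neurons and vessels and is missing from microglia.

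Other genes of the pathway were read from a list of 58 genes, of which 40 were in the matrix and 32 were not members. In Müller glia 6 of these 32 reached 100 UMIs in the comparison of bleached with unbleached vehicle. Of them 0 of 6 differed 2-fold, against 4.17% of all counted genes. With rolipram against bleached vehicle 2 of 6 were lower (C1ra and Cr1l), against 5.91% of all counted genes. With BC11-38 against bleached vehicle 1 of 6 was lower (C1ra), against 9.4%. In these drug comparisons C1ra and Cr1l reached 100 UMIs only through bleached vehicle (167 and 511 UMIs). Between the drugs 0 of 5 differed, against 2.1% of all counted genes.

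C1ra, the protease that C1q activates, was at 9.55, 8.16, 3.48 and 1.94 CPM in Müller glia. It was 2.35-fold (1.54 to 3.73) lower with rolipram and 4.22-fold (2.09 to 9.93) lower with BC11-38 than in bleached vehicle. Cr1l, a membrane regulator also called Crry, was at 17.3, 24.98, 10.8 and 19.8 CPM, and rolipram was 2.30-fold below bleached vehicle (1.81 to 2.96). Clu, which binds late complement components, had the most UMIs among soluble regulators, at 6904, 4311, 5846 and 4443 CPM in Müller glia. Cd59a, a membrane inhibitor of the last step, was at 25.8, 18.04, 26.8 and 30.0 CPM there and at 62.6, 67.2, 58.1 and 62.4 CPM over all neurons. Masp2 of the lectin pathway and Cfp (properdin), which stabilises the alternative convertase, were low in neurons, at 4.48 to 6.06 CPM and 5.19 to 6.47 CPM. C8g of the terminal pathway had 0.538 to 1.94 CPM in Müller glia. Only 2 of 7 terminal pathway genes and 6 of 8 receptors were in the matrix.

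Genes outside the list with the pattern most like each member were found by Pearson's r of log2 levels over 39 class-by-library profiles of at least 10 cells, among 14427 genes. The profiles share libraries and depth, so r is a description. For all 3 C1q genes the nearest were Trem2, Fcgr3 and Ly86, with r from 0.991 to 0.996. C3ar1 lay nearest to Ccl12, Rgs1 and Fcgr1 (0.972 to 0.976). C4b lay nearest to 1200007C13Rik, Efhd1 and Cyp1b1 (0.907 to 0.93) and Serping1 to Arhgap42, Il17rc and Gab1 (0.840 to 0.864). C3 had the loosest neighbours, Gpnmb, Cercam and Flnc (0.741 to 0.803), and Cfi had too few UMIs for this comparison.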

How the data were processed

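Single-cell transcripts of 4 libraries were analysed, 1 per group. The deposited matrix is the data slot of a Seurat assay, per the file headers. The deposited values themselves show natural log levels, each cell scaled to 10000 UMIs with 1 added. For the filters on cells and genes, thresholds were not given in the sources used here. Cell Ranger 6.0.1, Seurat 3.2.2 and mm10 are named per the submitters' processing notes. UMIs were recovered from the steps of the values, and 100% were within 0.001 of a whole number. The design had assumed deposited counts, and no count model was used.

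Clustering used scanpy 1.11.5 under Python 3.11.15 (with igraph 0.11.9 and anndata 0.12.19; 2000 variable genes, 30 components, 15 neighbours, Leiden resolution 1) without the complement list, giving 35 clusters, named from markers (at least 3 detected). Called doublets were left out. UMIs were summed by class and library. Ratios needed 50 cells in both libraries and are given with exact conditional 95% intervals. Genes with at least 100 UMIs over both libraries were counted where they differed 2-fold. No test across samples could be made, each group being 1 library. Alternatives changed the clustering, doublets, scaling, fold, UMI minimum, depth and cells used. The ratio and scaling steps recovered known changes in UMI sums simulated with counting error only. That simulation held no single cells or clusters, so it cannot show how the intervals hold where UMIs sit in few cells. Named genes were the 8 members, listed genes that differed 2-fold in Müller glia, the listed gene with most UMIs in each role and the 3 most alike genes; 1 gene of the list is not reported here. Members, lists and rules were chosen with earlier results of these data known. Sequences are from RefSeq (GRCm38.p6), and 4 of 8 members were matched.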

Additional observations from a re-analysis of the deposited data

Results flagged for a closer look

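Serping1 differed in direction between classes when bleached was compared with unbleached vehicle, with counting intervals on either side of 1. The ratio was 3.37 in bipolar cells, 5.54 in amacrine cells and 0.857 in Müller glia. The difference between the classes was not tested, since each group is 1 library. Among the Müller clusters with at least 50 cells in both libraries the ratio was 0.876 in cluster 12, 0.843 in cluster 14 with an interval that spans 1 (0.360 to 2.29), and 1.83 in cluster 30. Over the whole Müller class it was 1.05 as a mean over cells and 1.09 after thinning to 1500 UMIs.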

How the results depend on the processing

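No paired analysis was possible because each group has 1 library. Of the 651 values computed under alternatives, 28 moved and 412 did not among counts, shares and cell numbers. The 412 include counts of rods and cones, where no member reached 100 UMIs and a count of 0 could hardly move. Among values of single genes 51 moved and 160 did not, and 106 of 108 values of the 12 ratios of at least 2-fold stayed there. In Müller glia, at 1.5-fold 1 member was higher after bleaching (C3) and 2 were lower with rolipram (C3 and Serping1), and with means over cells the counts were again 1 and 2. In cells with a Y-linked and no Xist UMI 0 were lower with rolipram, and after thinning 1 was higher in rolipram than in BC11-38 (C4b). In cluster 30 alone 2 were lower with rolipram (C4b and Serping1) and 1 with BC11-38 (Serping1), where C3 and C4b were under 100 UMIs. With a minimum of 20 UMIs, Serping1 was counted in rods (1 higher after bleaching, 1 lower with rolipram, 1 lower with BC11-38). Cfi joined it in bipolar cells (2, 2 and 2), and in amacrine cells 1 member was lower after bleaching (C3ar1). The share of all genes was not computed under the alternatives, so these member counts have no background to be read against. In amacrine cells 0 members were lower with rolipram or BC11-38 without the highest doublet scores, and 0 with BC11-38 without the 10% of cells with most Müller transcripts or without the highest cell of each library. These counts fell because Serping1 dropped under 100 UMIs: its ratio to bleached vehicle without the highest doublet scores was 0.0986 with rolipram and 0.0546 with BC11-38, and with BC11-38 it was 0.0605 and 0.0471 in the other alternatives, close to 0.106 and 0.0552 with all cells. Without the highest doublet scores the share of UMIs in microglia was 96.6% for C1qa, 96.1% for C1qb, 96.4% for C1qc and 71.1% for C3ar1, and in Müller glia 76.0% for C3, 88.9% for C4b and 71.3% for Serping1. Microglia then numbered 3 in unbleached vehicle and 4 in rolipram. In that alternative a Gfap-led cluster of 46 cells was named astrocyte, with 5 of 5 astrocyte markers detected, and lay outside the Müller class. Its part in the lower C3 and C4b shares was not tested, nor was the cause of the other changed shares and numbers.

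Of 163 ratio values 5 lay on the other side of 1. They were Serping1 in Müller glia after bleaching (1.05 as a mean over cells, 1.09 thinned, 1.83 in cluster 30), C4b after bleaching in cluster 30 (1.55) and C4b with rolipram in cluster 30 (0.381). Among the main clusters, leaving out those with more astrocyte than Müller markers met no cluster and gave no value. Leaving out the highest cell, the Gfap-led cluster or cells with most Müller transcripts, and cluster 30 alone, were alternatives chosen after seeing the data. Few microglia, 1 library a group and low UMI totals for Cfi, C3ar1 and C3 limit what can be seen.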
